A study of Mus musculus with 12 samples.

Results

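The integrin subunits of fibroblasts examined here were 10 genes taken by name from the deposited counts: the collagen receptor subunits Itga1, Itga2, Itga10 and Itga11, the fibronectin and vitronectin receptor subunits Itga5, Itgav, Itgb3 and Itgb5, the laminin receptor subunit Itga3, and Itgb1, the beta chain that these alpha chains can pair with. They were 10 of 33246 listed genes, and all 10 were among the 14542 genes with enough counts to be tested. RNA was sequenced from primary fibroblasts of the ears of 1-month-old C57BL/6 mice of both sexes, used at passage 2 and kept for 48 h on alginate gels. The gels of all groups carried the RGD peptide, the adhesion motif of fibronectin that cells bind through integrins. There were 4 groups of 3 samples: 2-kPa elastic, 20-kPa elastic, 2-kPa viscoelastic and 20-kPa viscoelastic. Elastic gels were crosslinked covalently and held stress, while the viscoelastic gels were crosslinked ionically with calcium and were of the slow-relaxing kind, so that the gel type and its crosslinker cannot be told apart. No genotype differed between groups. The comparisons address how stress relaxation at each stiffness, and stiffness on each gel type, related to the RNA of the receptors that hold cells to the gel.

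Integrins are receptors made of an alpha and a beta chain that span the membrane, bind extracellular matrix outside the cell and connect it to actin through talin and other adaptors inside. The pairing sets the ligand: alpha-5 with beta-1 binds fibronectin, alpha-v with beta-3 or beta-5 binds vitronectin and other RGD proteins, alpha-1, alpha-2, alpha-10 and alpha-11 with beta-1 bind collagens, and alpha-3 with beta-1 binds laminins. In connective tissue, fibroblasts use them to attach, to pull on the matrix and to release latent TGF-beta from it.

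On viscoelastic gels, 8 of the 10 subunits were lower than on elastic gels in the mean over both stiffnesses, and none was higher, where of all tested genes 20.4% were lower, 19.6% higher and 40.0% either (edgeR quasi-likelihood test, Benjamini-Hochberg adjusted p under 0.05, which is what called means below). The size differed by subunit: Itgb3 stood at 0.453 and Itga2 at 0.519 of the elastic level, Itga5, Itga3 and Itgav at 0.686, 0.692 and 0.694, and Itga10, Itgb1 and Itgb5 at 0.762, 0.852 and 0.919. The call of Itgb5 was lost when single samples were left out. The collagen receptor genes Itga1 and Itga11 were at 1.01 and 1.07 times the elastic level and were not called. For 6 subunits (Itga2, Itga3, Itga5, Itgav, Itgb1 and Itgb3) each of the 6 viscoelastic samples lay below each of the 6 elastic samples, as for 6.51% of all tested genes, none had the reverse order (5.86% of genes), and the values of the other 4 overlapped. For Itga3 the margin was slight, as its highest viscoelastic and lowest elastic samples were level after rounding. Itga10 followed another pattern, with its high level in the 2-kPa elastic group alone. The RNA of whole cultures was measured, so fewer cells with a subunit and less of its RNA per cell cannot be told apart.

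Totals ran from 36626221 to 43612804 counts per sample, and the TMM factors that correct them from 0.968 to 1.03. Levels below are TMM-normalized CPM, in which the counts of each gene are scaled to a common library total. Among the samples, 20-kPa elastic replicate 3 was the farthest from its group for 7 of the 10 subunits, being the highest of its group for 7 of them and the lowest for 3. Calls of single subunits at 20 kPa that involve it are given with and without it. Those of other genes are given with it alone. In the mean over both stiffnesses its removal left 7 subunits called, all of the 8 but Itgb5 (adjusted p = 0.0766), and moved the log2 fold change most for Itga2, from -0.95 to -0.79, and for Itgb3, from -1.14 to -1.03. The 8 fibroblast markers, led by the collagen gene Col3a1, summed to 19730 to 24840 CPM in every sample. None of them was called between gel types at 2 kPa (8.77% of tested genes higher, 11.1% lower). At 20 kPa (17.4% higher, 16.1% lower) 3 were called higher on viscoelastic gels and 1 lower. The former were Dcn (log2 fold change 0.75, adjusted p = 0.00175), Lum (0.70, adjusted p = 0.0014) and Col3a1 (0.26, adjusted p = 0.0419), and the latter Thy1 (-0.53, adjusted p = 0.000837). Over both stiffnesses, 1 marker was called higher in the mean (19.6% of tested genes) and 2 lower (20.4%). Dcn was higher (0.54, adjusted p = 0.0011), and Thy1 (-0.22, adjusted p = 0.0166) and Pdgfrb (-0.12, adjusted p = 0.0348) were lower. Marker lists of leukocytes (5.19 to 9.01 CPM), endothelial cells (1.98 to 3.51), keratinocytes (11.7 to 20.9), skeletal muscle (4.63 to 11.1), Schwann cells and melanocytes (2.33 to 4.25) and adipocytes (0 to 0.264) were low. Chondrocyte markers summed to 4020 to 5658 CPM, mostly the cartilage collagen gene Col2a1, and the 5 markers of pericytes and smooth muscle to 280.1 to 553.7 CPM, mostly Cspg4. Both lists are set beside results of the subunits below.

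The subunits spanned a wide range of levels. Per kilobase of exon, Itgb1 was the most abundant, at 385 ± 43.6 CPM per kb (mean ± SD over all 12 samples), followed by Itgb5 at 53.5 ± 3.25. Itga5 (37.3 ± 8.62), Itgav (36.5 ± 7.78) and Itga11 (35.7 ± 2.76) came next on this scale, in an order that changed with the gel. Itga11 averaged 34.4 and 34.6 CPM per kb on the elastic gels of 2 and 20 kPa, below Itga5 at 41.9 and 46.7, and 38.8 and 35.1 on the viscoelastic gels, above Itga5 at 29.6 and 31.0. Over all samples Itga1 stood at 20.1 ± 1.67 and Itga3 at 16.5 ± 4.63. Itga10 (4.42 ± 1.53), Itgb3 (2.39 ± 1.05) and Itga2 (0.812 ± 0.335) were the scarcest. The annotated exons of Itga1 total 18.6 kb, the longest of the set, which lowers its value per kilobase if the cells used shorter transcripts. The scarcest subunit, Itga2, had 113 to 470 reads per sample.

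**Figure D1:**
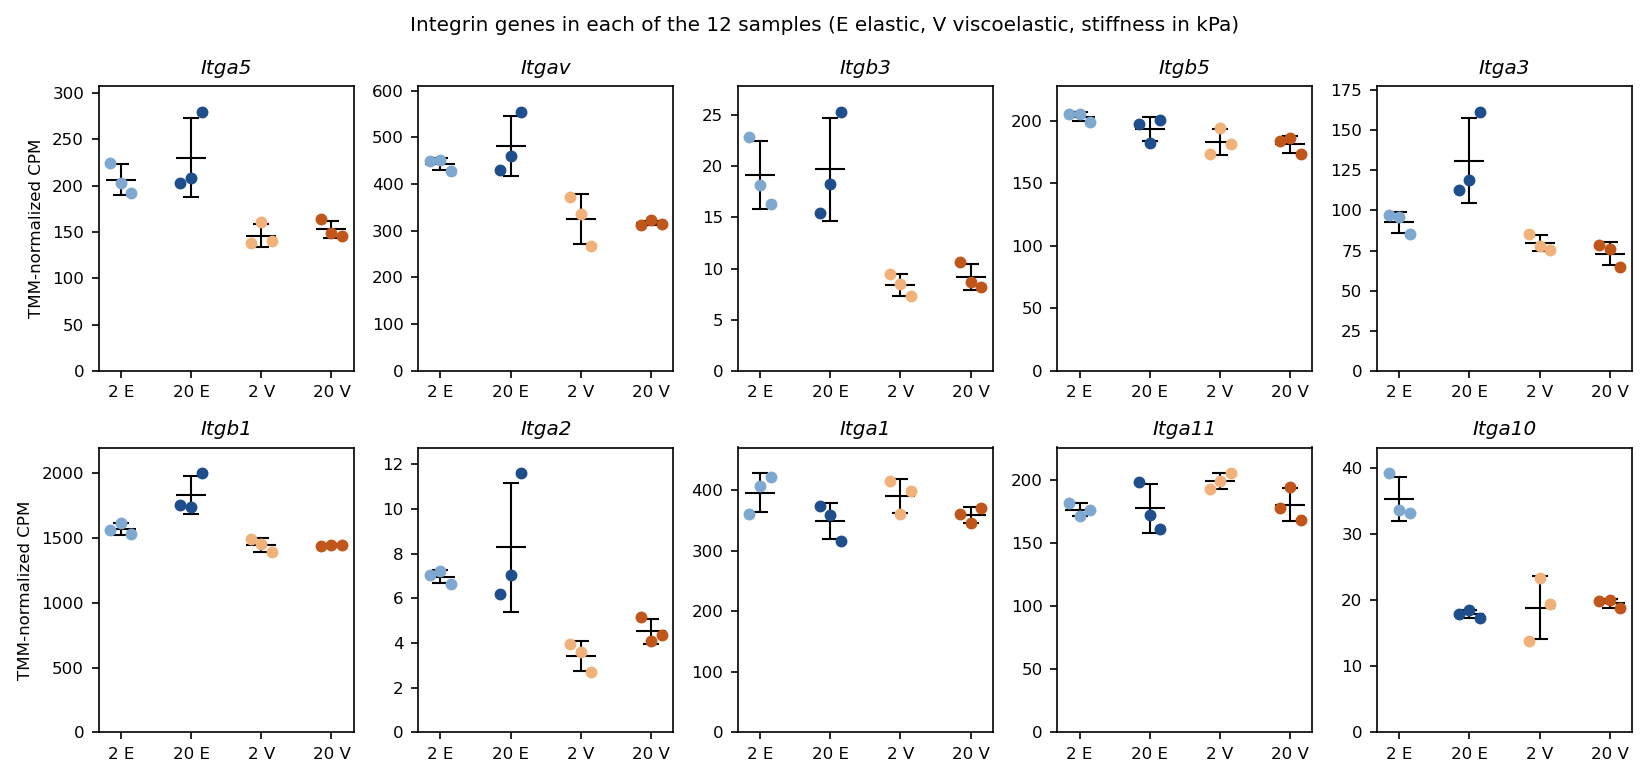
Levels of the 10 integrin genes in TMM-normalized CPM (y axis, from 0), by group (x axis: 2 or 20 kPa, E elastic, V viscoelastic). Points are samples, 3 per group, and the black bars are the mean and SD. Itgb3 ran from 7.33 to 10.6 on viscoelastic gels and from 15.5 to 25.3 on elastic gels, Itga10 was high in the 2-kPa elastic group alone, and Itga1 and Itga11 overlapped between gel types.

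The upstream 250 bases of 3 subunits are printed here as examples of the patterns seen: Itga5 was called lower on viscoelastic gels at both stiffnesses, Itgb1 at 20 kPa, and Itga10 at 2 kPa, the last also being lower at 20 than at 2 kPa on elastic gels. They are RefSeq sequences of build GRCm38.p6, read in the direction of the gene, and none comes from the samples: Itga5 at chr15:103366792-103367041 (minus strand), Itgb1 at chr8:128685404-128685653 (plus strand) and Itga10 at chr3:96645334-96645583 (plus strand). Capitals mark matches, on either strand, to the letters of the SP1 (GGGCGG) or TEAD (GGAATG) motif.
Itga5: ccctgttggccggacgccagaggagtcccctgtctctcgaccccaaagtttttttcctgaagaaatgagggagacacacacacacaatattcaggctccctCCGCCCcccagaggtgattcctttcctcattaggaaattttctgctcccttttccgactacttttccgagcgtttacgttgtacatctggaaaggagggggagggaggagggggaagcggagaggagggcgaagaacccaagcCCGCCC
Itgb1: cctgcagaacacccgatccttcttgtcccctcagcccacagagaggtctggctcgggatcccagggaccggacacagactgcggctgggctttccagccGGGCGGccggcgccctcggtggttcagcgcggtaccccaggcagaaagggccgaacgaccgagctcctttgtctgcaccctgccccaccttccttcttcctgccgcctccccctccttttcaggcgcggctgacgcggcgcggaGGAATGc
Itga10: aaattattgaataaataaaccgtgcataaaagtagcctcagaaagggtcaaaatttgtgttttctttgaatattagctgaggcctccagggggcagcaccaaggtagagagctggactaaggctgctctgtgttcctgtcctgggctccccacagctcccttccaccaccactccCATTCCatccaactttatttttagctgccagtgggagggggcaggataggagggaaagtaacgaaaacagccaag
A RefSeq window of 300 bases (250 before and 50 after the start) was matched for 9 of the 10 subunits, with 10 windows since Itga3 has a pair, and Itgb3 was not matched. SP1 letters occurred for 6 of the 9 subunits, and in 35.6% of the 32817 windows of all genes. Members are counted here by subunit and the shares by window, so Itga3 could match in either window of its pair. TEAD letters occurred for Itga10 and Itgb1, among 14.7% of all windows. The letters TGANTCA of AP-1 occurred for Itga3 alone, among 7.81%, and the CArG box of serum response factor for none, among 1.63%. These motifs share no letters in the printed stretches. A match is a description of the sequence and says nothing of binding in these cells.

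Among the receptors for RGD proteins, the motif the gels carried, the alpha chains Itga5 and Itgav were lower on viscoelastic gels at both stiffnesses. Itga5, the fibronectin receptor chain, lay on chr15 (103344286 to 103366763, mm10) and measured 225, 203 and 192 CPM on the elastic gels of 2 kPa, 203, 209 and 279.7 CPM on those of 20 kPa, 138, 161 and 139.8 CPM on the viscoelastic gels of 2 kPa and 164, 149 and 146 CPM on those of 20 kPa. The gel types did not overlap, and the highest value belonged to 20-kPa elastic replicate 3. The log2 fold change of Itga5 on viscoelastic gels was -0.50 ± 0.11 (SE) at 2 kPa (adjusted p = 0.00521) and -0.59 ± 0.11 at 20 kPa (adjusted p = 0.000965), and without that replicate the latter was -0.43 (adjusted p = 0.00336). Itgav, which binds vitronectin and takes part in releasing latent TGF-beta, lay on chr2 (83724397 to 83806916) and measured 449, 452 and 428 CPM on the elastic gels of 2 kPa and 431, 460.1 and 554 CPM on those of 20 kPa. On viscoelastic gels Itgav measured 372, 337 and 268 CPM at 2 kPa and 312, 322 and 315 CPM at 20 kPa. Again no viscoelastic sample reached the lowest elastic one, and the highest value again belonged to 20-kPa elastic replicate 3. The log2 fold change of Itgav was -0.45 ± 0.11 at 2 kPa (adjusted p = 0.00866) and -0.61 ± 0.11 at 20 kPa (adjusted p = 0.00072), or -0.49 without 20-kPa elastic replicate 3.

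The beta chains that pair with alpha-v differed. Itgb3, which with alpha-v forms the classical vitronectin receptor, lay on chr11 (104608000 to 104670476) and measured 22.8, 18.2 and 16.4 CPM on the elastic gels of 2 kPa and 15.5, 18.3 and 25.3 CPM on those of 20 kPa. On viscoelastic gels it measured 9.46, 8.48 and 7.33 CPM at 2 kPa and 10.6, 8.66 and 8.20 CPM at 20 kPa. The highest viscoelastic sample was below the lowest elastic sample. Its log2 fold change was -1.19 ± 0.17 at 2 kPa (adjusted p = 0.000369) and -1.10 ± 0.17 at 20 kPa (adjusted p = 0.000316), the lowest fold of the 10 subunits at each stiffness, and -0.88 at 20 kPa without 20-kPa elastic replicate 3 (adjusted p = 0.0014). Itgb5, an alternative partner of alpha-v on chr16 (33829665 to 33949338), measured 206, 205 and 199 CPM on 2-kPa elastic gels, 197, 182 and 200.3 CPM on 20-kPa elastic gels, 174, 194 and 181 CPM on 2-kPa viscoelastic gels and 184, 186 and 174 CPM on 20-kPa viscoelastic gels. The samples at 20 kPa overlapped, and neither stiffness alone was called, with log2 fold changes of -0.15 ± 0.060 at 2 kPa (adjusted p = 0.0868) and -0.093 ± 0.060 at 20 kPa (adjusted p = 0.248). Its mean over both stiffnesses was called at -0.12 ± 0.042 (adjusted p = 0.0318), a call that was lost when any 1 of 7 samples was left out (adjusted p 0.0563 to 0.085): 2-kPa elastic replicate 1 or 2, 20-kPa elastic replicate 1 or 3, 2-kPa viscoelastic replicate 1 or 3, or 20-kPa viscoelastic replicate 3.

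Within a sample, the counts of Itgb3 relative to those of Itgb5 were 0.0940 ± 0.0151 (SD, n = 3) and 0.102 ± 0.0240 on the elastic gels of 2 and 20 kPa, against 0.0462 ± 0.0074 and 0.0505 ± 0.0064 on the viscoelastic gels of 2 and 20 kPa. The lowest elastic ratio was 0.0785 and the highest viscoelastic ratio 0.0579. The ratio of Itga5 to Itgav did not separate the gel types, with means of 0.466 and 0.476 on elastic and 0.457 and 0.484 on viscoelastic gels. These ratios need no scaling between samples, and no test was made on them.

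Itga3 and Itgb1, which together make a laminin receptor, were called between gel types at 20 kPa and not at 2 kPa. Itga3 lay on chr11 (95044474 to 95076801) and measured 96.9, 96.1 and 85.2 CPM on 2-kPa elastic gels, 113, 119 and 161 CPM on 20-kPa elastic gels, 85.2, 77.9 and 75.6 CPM on the softer viscoelastic gels and 78.4, 76.1 and 64.8 CPM on the stiffer ones. All 20-kPa elastic samples were above all others, the viscoelastic groups overlapped each other, and the lowest 2-kPa elastic and highest viscoelastic samples were level after rounding. On viscoelastic gels Itga3 fell at 20 kPa by 0.84 on the log2 scale (SE 0.11, adjusted p = 0.000172), or by 0.66 without 20-kPa elastic replicate 3, while at 2 kPa the log2 fold change was -0.22 ± 0.11 and not called (adjusted p = 0.185). Itgb1, the shared beta chain, lay on chr8 (128685654 to 128733200) and measured 1563, 1619 and 1530.3 CPM on 2-kPa elastic gels, 1753, 1735 and 1998 CPM on 20-kPa elastic gels, 1491, 1457 and 1390.3 CPM on the softer viscoelastic gels and 1435, 1447 and 1447 CPM on the stiffer ones. Its order matched that of Itga3, with the 20-kPa elastic samples on top and the viscoelastic groups overlapping. Itgb1 was called lower on viscoelastic gels at 20 kPa (log2 fold change -0.34 ± 0.071, adjusted p = 0.0023, or -0.27 with adjusted p = 0.0138 without 20-kPa elastic replicate 3) and not at 2 kPa (-0.12 ± 0.071, adjusted p = 0.254), and the difference between these effects was not called (interaction -0.22, adjusted p = 0.206).

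The 4 collagen receptor chains did not move together. Itga2, which binds fibrillar collagen, lay on chr13 (114833081 to 114932100) and measured 7.05, 7.20 and 6.64 CPM on 2-kPa elastic gels, 6.21, 7.02 and 11.6 CPM on 20-kPa elastic gels, 3.97, 3.58 and 2.70 CPM on the softer viscoelastic gels and 5.15, 4.07 and 4.36 CPM on the stiffer ones. No viscoelastic sample reached the elastic ones, and 20-kPa elastic replicate 3 stood far above its group. The log2 fold change of Itga2 was -1.03 ± 0.20 at 2 kPa (adjusted p = 0.0032) and -0.87 ± 0.20 at 20 kPa (adjusted p = 0.00386), and without that replicate the value at 20 kPa was -0.55 (adjusted p = 0.0163).

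Itga1 and Itga11 were the 2 subunits that were called in no comparison. Itga1, a receptor for collagen IV among others, lay on chr13 (114953096 to 115101964) and measured 360.3, 407 and 421 CPM on 2-kPa elastic gels, 374, 359 and 316 CPM on 20-kPa elastic gels, 415, 360.1 and 399 CPM on the softer viscoelastic gels and 361, 345 and 371 CPM on the stiffer ones. Every neighbouring pair of groups overlapped in the order of the means. The log2 fold change on viscoelastic gels was -0.018 at 2 kPa (95% interval -0.19 to 0.15) and 0.040 at 20 kPa (-0.13 to 0.21). Itga11, the fibroblast receptor for fibrillar collagen, lay on chr9 (62677826 to 62783982) and measured 181, 172 and 176 CPM on 2-kPa elastic gels, 199, 172 and 161 CPM on 20-kPa elastic gels, 193, 199 and 205 CPM on the softer viscoelastic gels and 178, 194 and 168 CPM on the stiffer ones. At 2 kPa each viscoelastic sample was above each elastic one, as for 16.6% of all genes, but the log2 fold change of 0.17 (95% interval 0.014 to 0.33) was not called (adjusted p = 0.116), and at 20 kPa it was 0.022 (-0.14 to 0.18). The counts of Itga11 relative to Itga5 were 0.858 ± 0.0574 and 0.794 ± 0.203 on elastic gels of 2 and 20 kPa, and 1.37 ± 0.117 and 1.18 ± 0.110 on viscoelastic gels. Per kilobase, Itga11 made up 21.1% ± 0.607 and 20.2% ± 3.52 of the summed 7 alpha chains on elastic gels and 28.2% ± 1.85 and 26.6% ± 1.38 on viscoelastic gels.

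Itga10, a collagen receptor known best from cartilage, lay on chr3 (96645584 to 96664519) and was high in 1 group. It measured 39.2, 33.6 and 33.3 CPM on 2-kPa elastic gels, and 18.0, 18.6 and 17.4 CPM on 20-kPa elastic gels, 13.8, 23.3 and 19.4 CPM on the softer viscoelastic gels and 19.9, 20.0 and 18.8 CPM on the stiffer ones. The lowest 2-kPa elastic sample was above all samples of the other groups, and those 3 groups had means of 18.0 to 19.6 CPM. Itga10 was lower on viscoelastic gels at 2 kPa (log2 fold change -0.91 ± 0.13, adjusted p = 0.000363) and was 0.12 ± 0.13 at 20 kPa (adjusted p = 0.505), and the difference between these effects was called (interaction 1.03 ± 0.19, adjusted p = 0.00336). The annotation places 33.5% of its exon bases also in Gm42957, a gene on the same strand that was not analysed here, so its reads could be divided between them.

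**Figure D2:**
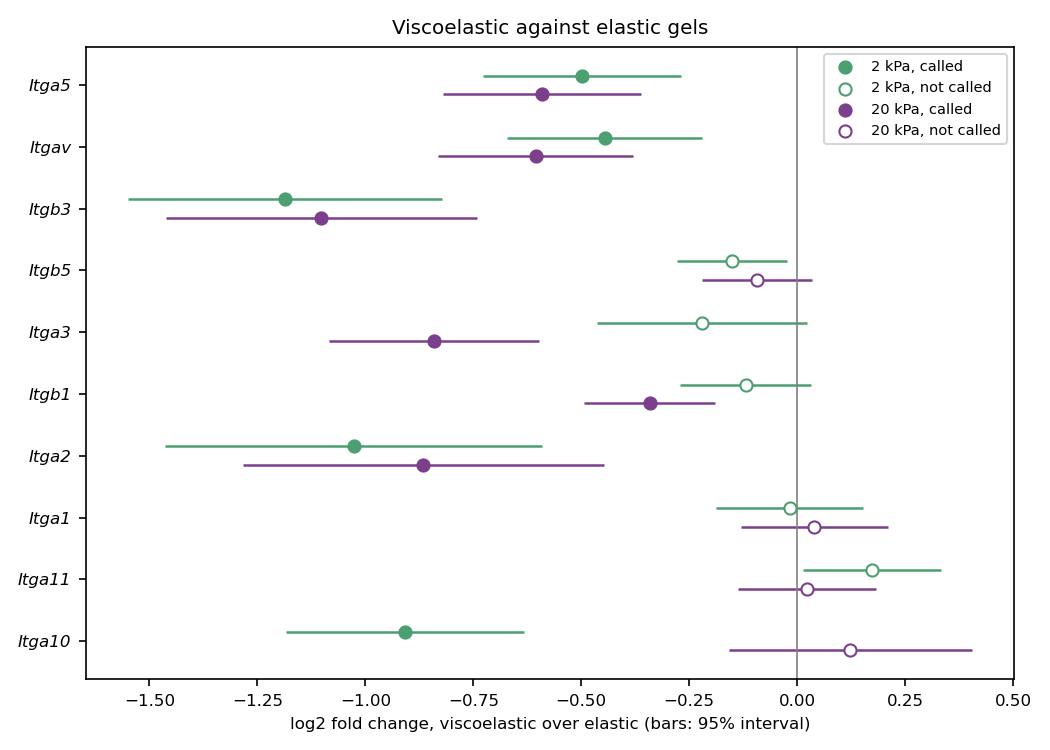
Log2 fold change of each subunit on viscoelastic over elastic gels (x axis) at 2 kPa (green) and 20 kPa (purple), with 95% intervals as bars. Filled points passed an adjusted p of 0.05. Itgb3 lies lowest at both stiffnesses, Itga3 and Itgb1 are filled at 20 kPa alone, and Itga10 at 2 kPa alone.

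Cartilage genes were set beside Itga10 since ear tissue holds cartilage. Acan, the cartilage proteoglycan, measured 1282, 1611 and 1476 CPM on 2-kPa elastic gels, 964, 1033 and 1090 CPM on 20-kPa elastic gels, 958, 1146 and 1054 CPM on the softer viscoelastic gels and 1151, 854 and 1055 CPM on the stiffer ones, also highest in the 2-kPa elastic group without overlap. It was called lower on 2-kPa viscoelastic gels (log2 fold change -0.47, adjusted p = 0.00847) and on 20-kPa elastic gels (-0.50, adjusted p = 0.00767), each against 2-kPa elastic gels. Of the 5 chondrocyte markers, Acan was the 1 called at 2 kPa between gel types, and Acan and Col9a1 were the 2 called between stiffnesses on elastic gels, both lower at 20 kPa. Between gel types at 20 kPa no marker was called lower, while Col9a1 (log2 fold change 0.86, adjusted p = 0.000441) and Matn3 (0.56, adjusted p = 0.0377), which encode cartilage matrix proteins, were called higher on viscoelastic gels. Col9a1 was also called in the interaction (1.01, adjusted p = 0.00589) and higher in the mean over stiffness (0.36, adjusted p = 0.00973), where Acan was lower (-0.24, adjusted p = 0.0235). Col2a1 did not follow Itga10, with a log2 fold change of 0.0069 between gel types at 2 kPa (adjusted p = 0.977). Over the 12 samples, which share their scaling, the correlation of log2 levels with Itga10 was 0.813 for Acan, 0.384 for Col9a1, 0.381 for Sox9, 0.275 for Col2a1 and 0.139 for Matn3. The 5 chondrocyte markers, none of them at 0 in a group, summed to 4416 to 5658 CPM on 2-kPa elastic gels and 4020 to 4110 CPM on 20-kPa elastic gels, with 4278 to 5421 and 4141 to 5491 CPM on the viscoelastic gels of 2 and 20 kPa. The part of chondrocytes in the level of Itga10 was not tested.

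**Figure D3:**
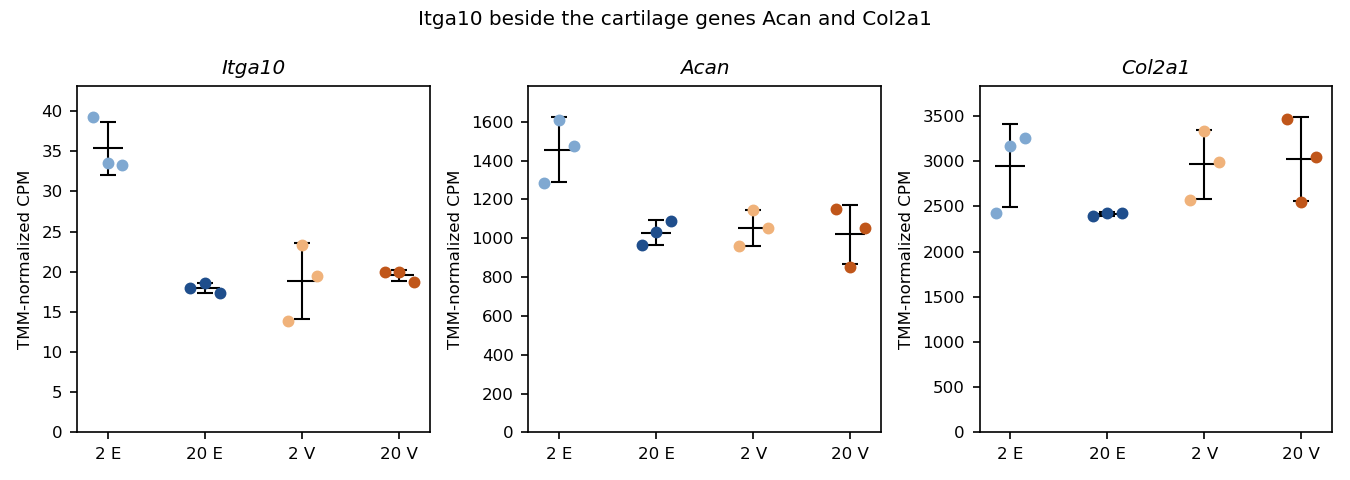
Itga10 and the cartilage genes Acan and Col2a1 in TMM-normalized CPM (y axes, from 0), by group (x axis: 2 or 20 kPa, E elastic, V viscoelastic), with points for samples and bars for mean and SD. Itga10 and Acan were highest in the 2-kPa elastic group, and Col2a1 overlapped between that group and both viscoelastic groups.

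Counted by comparison, 5 of 10 subunits were called lower on viscoelastic gels at 2 kPa and none higher, where 11.1% of tested genes were lower and 8.77% higher. At 20 kPa 6 were lower and none higher, where 16.1% were lower and 17.4% higher. Itga2, Itga5, Itgav and Itgb3 were called at both stiffnesses, Itga10 at 2 kPa, and Itga3 and Itgb1 at 20 kPa. The median log2 fold change of the 10 subunits was -0.33 at 2 kPa and -0.47 at 20 kPa, against -7.5e-05 and 0.016 over all tested genes. Samples did not overlap with viscoelastic lower for 8 subunits at 2 kPa and 6 at 20 kPa, as for 19.7% and 23.7% of all genes, and with viscoelastic higher for Itga11 at 2 kPa and Itga10 at 20 kPa, as for 16.6% and 26.2% of all genes. Without 20-kPa elastic replicate 3 the same 6 subunits were called at 20 kPa. Cspg4, from the marker list of pericytes and smooth muscle, was also lower on viscoelastic gels (log2 fold change -0.66 at 2 kPa, adjusted p = 0.000578, and -0.49 at 20 kPa, adjusted p = 0.00233). That list did not move as 1 group. At 2 kPa Cspg4 and Notch3 were called lower and the smooth muscle myosin gene Myh11 higher (0.86, adjusted p = 0.0127), at 20 kPa Cspg4 and Myh11 were called lower (Myh11 -1.20, adjusted p = 0.000625), and Rgs5 was at 0.18 and 0.34 and not called (adjusted p = 0.637 and 0.366). The 5 markers, none at 0 in a group, summed to 374.8 to 553.7 CPM on elastic gels and to 280.1 to 336.6 CPM on viscoelastic gels. Nearly all of each sum was Cspg4, at 272 to 540.4 CPM per sample. The other markers were scarce: Notch3 was at 6.18 to 10.7 CPM, Myh11 at 0.879 to 3.50, Rgs5 at 0.447 to 1.00 and Des at 0.0467 to 0.318. The part of pericytes in the integrin levels was not tested.

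Stiffness was compared on each gel type. On elastic gels, 1 of 10 subunits rose from 2 to 20 kPa and 1 fell, where 6.81% of tested genes were higher and 7.14% lower. Itga3 rose (log2 fold change 0.50 ± 0.11, adjusted p = 0.00945, and 0.32 with adjusted p = 0.0375 without 20-kPa elastic replicate 3), and Itga10 fell by 0.98 on the log2 scale (SE 0.13, adjusted p = 0.000262, or by 0.95 with adjusted p = 0.00174 without it). Itgb1 was higher at 20 kPa without overlap, as 17.8% of genes were, but its log2 fold change of 0.22 ± 0.071 missed the threshold (adjusted p = 0.0531), and was 0.15 without that replicate (adjusted p = 0.232). Without 20-kPa elastic replicate 3, the values of Itga2, Itga5 and Itgb3, none of them called, went from 0.24, 0.16 and 0.039 to -0.074, -0.0046 and -0.18.

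On viscoelastic gels, none of the 10 subunits was called between 20 and 2 kPa by edgeR or by DESeq2, and none had an unadjusted p under 0.05, where 1.58% of tested genes were higher and 0.695% lower. Log2 fold changes ran from -0.14 (Itga11) to 0.41 (Itga2). The intervals limit what could have been missed: for Itgb1 the 95% interval was -0.15 to 0.15 and for Itgav -0.26 to 0.18, whereas for the scarce Itga2 it was -0.042 to 0.86. Itga2 was the 1 subunit whose viscoelastic groups did not overlap, with all 20-kPa samples above all 2-kPa samples, as for 13.6% of genes (the reverse order held for 8.73%).

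The test of the interaction, which asks whether the effect of gel type differed between stiffnesses, called 2 of the 10 subunits (7.56% of tested genes), where 4.45% of tested genes were called in the direction of Itga10 and 3.12% in that of Itga3. For Itga3 it was -0.62 ± 0.16 (adjusted p = 0.0298), with a larger decrease at 20 kPa. This call was lost when any 1 of 4 samples was left out: the adjusted p was 0.0521 without 2-kPa elastic replicate 1, 0.0718 without 2-kPa elastic replicate 3, 0.0684 without 2-kPa viscoelastic replicate 1 and 0.0798 without 20-kPa viscoelastic replicate 3. Without 20-kPa elastic replicate 3 it was -0.44 (adjusted p = 0.041). Itga10 was called whichever sample was left out, and was at 1.01 without 20-kPa elastic replicate 3 (adjusted p = 0.00886). Over all 4 groups, 7 of 10 subunits differed (44.7% of tested genes), all but Itga1, Itga11 and Itgb5.

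**Figure D4:**
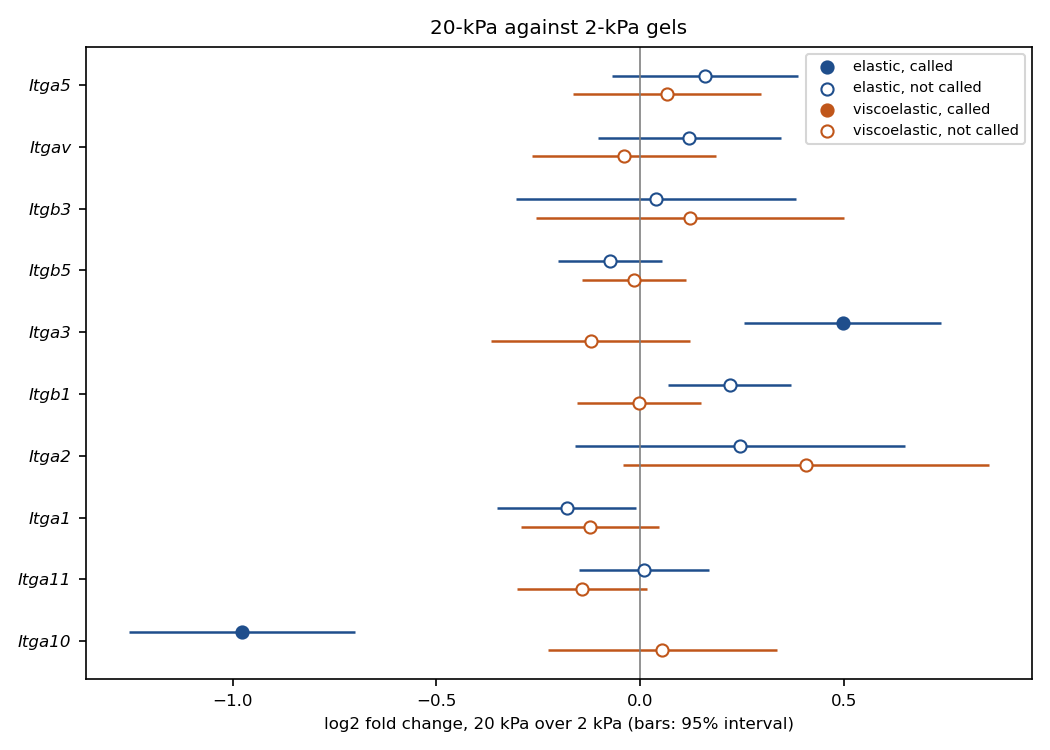
Log2 fold change of each subunit on 20-kPa over 2-kPa gels (x axis) for elastic (blue) and viscoelastic gels (orange), with 95% intervals as bars. Filled points passed an adjusted p of 0.05: Itga3 at 0.50 and Itga10 at -0.98 on elastic gels, and none on viscoelastic gels.

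Across the 12 samples, subunits fell into likenesses that can be described by Pearson's r of their log2 levels, with samples that share scaling and group. Itga3 was most like Itgb1 (r = 0.967), Itga5 most like Itgb3 (0.957), Itga2 most like Itgb3 (0.946) and Itgav most like Itgb3 (0.943). Itgb5 was nearest to Itga5 at 0.748 and Itga10 to Itgb5 at 0.73. Itga1 and Itga11 were nearest to each other, at 0.288, and Itga11 had its lowest value with Itga2 (-0.758). Itga2 had the widest span of group means (1.23 on the log2 scale), and the tested genes most like it were Urb1 (0.978), Endod1 (0.978) and the mesenchymal transcription factor gene Prrx1 (0.964).

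**Figure D5:**
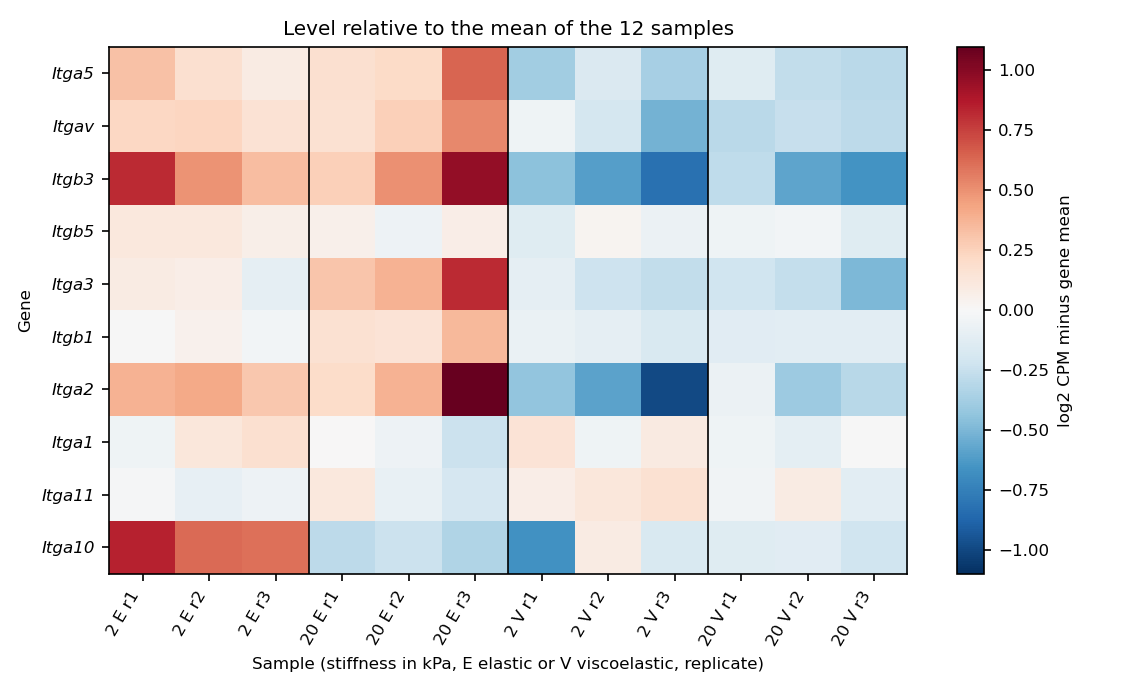
Log2 CPM of the 10 subunits (rows) in the 12 samples (columns, ordered by group, r for replicate), each minus the gene's mean over samples (red higher, blue lower). The first 6 columns are elastic gels: Itga5, Itgav, Itgb3 and Itga2 are red there and blue in the viscoelastic columns, 20-kPa elastic replicate 3 is the reddest column for Itga2, and Itga10 is red in the first 3 columns.

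Of the 16 other integrin genes, 12 were tested, and in the mean over stiffness 3 were lower on viscoelastic gels and none higher, 3 of 12 being near the 20.4% of all tested genes that were lower: Itga6, a laminin receptor chain, at -0.60 on the log2 scale (adjusted p = 0.000129), Itga9 at -0.24 (adjusted p = 0.00108) and Itgb7 at -0.52 (adjusted p = 0.0173). Itga6 and Itga9 were called lower at both stiffnesses. Itgb7, with group means of 1.82 to 3.55 CPM, was called at 20 kPa (-0.86, adjusted p = 0.00753) and not at 2 kPa (-0.18, adjusted p = 0.62). Its interaction was not called (adjusted p = 0.224), and it rose from 2 to 20 kPa on elastic gels (0.78, adjusted p = 0.0276). The median log2 fold change of the 12 tested genes was -0.087. Of 18 listed regulators of integrin activation and integrin partners, 17 were tested. Of these, 1 was lower and 2 were higher, fewer in each direction than the 20.4% and 19.6% of all tested genes. Tln1, which encodes a talin, an adaptor that binds beta tails and switches integrins on, was lower (-0.25, adjusted p = 0.00103), while Itgb1bp1, which encodes a protein that competes for the beta-1 tail, was higher (0.19, adjusted p = 0.00384), as was Itgb3bp (0.29, adjusted p = 0.00355). Tln1, Itgb1bp1 and Itgb3bp were called at 20 kPa (-0.37, 0.25 and 0.40, adjusted p = 0.00106, 0.00726 and 0.00488) and not at 2 kPa (adjusted p = 0.198, 0.17 and 0.216). Their interactions were not called (adjusted p = 0.15, 0.461 and 0.345). Tln2, the other talin gene, was called higher at 2 kPa (0.34, adjusted p = 0.00291) and lower at 20 kPa (-0.20, adjusted p = 0.0279), with a called interaction (adjusted p = 0.0026). The median of the 17 tested regulators and partners was -0.001.

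Among genes that encode ligands of the 10 subunits, 22 were listed, 21 were tested, 12 were lower on viscoelastic gels in the mean over stiffness and 4 higher (20.4% and 19.6% of all tested genes), with a median log2 fold change of -0.28. The basement membrane collagen genes Col4a2 (-0.49, adjusted p = 3.03e-05) and Col4a1 (-0.42, adjusted p = 7.49e-05) fell, as did Tgfb1 (-0.55, adjusted p = 4.43e-05), whose latent product is an alpha-v ligand, and Tnc, the matrix glycoprotein tenascin-C (-0.41, adjusted p = 7.24e-05). Higher were Postn, periostin (0.45, adjusted p = 0.000217), Lama3, a chain of the laminin that alpha-3 binds (0.78, adjusted p = 0.000527), and the matricellular genes Ccn1 (0.54, adjusted p = 0.00101) and Ccn2 (0.30, adjusted p = 0.0111). Some of these means joined unlike values. Ccn2 was called at 2 kPa (0.57, adjusted p = 0.004) and was at 0.022 at 20 kPa (adjusted p = 0.906), with an interaction that was not called (adjusted p = 0.059). Tgfb1 fell at 2 kPa (-0.84, adjusted p = 7.16e-05) and was at -0.26 at 20 kPa (adjusted p = 0.0543), with a called interaction (adjusted p = 0.0173). Tnc fell at 20 kPa (-0.65, adjusted p = 0.000109) and was at -0.17 at 2 kPa (adjusted p = 0.129), also with a called interaction (adjusted p = 0.0165). Postn and Lama3 were called at 20 kPa (0.69 and 1.18, adjusted p = 0.000225 and 0.000378) and not at 2 kPa (0.22 and 0.38, adjusted p = 0.143 and 0.201), with interactions that were not called (adjusted p = 0.0536 and 0.0981). Of the 21 ligand genes, 7 were lower and 2 higher at 2 kPa (11.1% and 8.77% of all tested genes), and 11 were lower and 4 higher at 20 kPa (16.1% and 17.4%), so that the higher counts were near the share over all genes. Between 20 and 2 kPa, 2 rose and 2 fell on elastic gels (6.81% and 7.14%), and 1 rose and 1 fell on viscoelastic gels (1.58% and 0.695%).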

How the data were processed

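Mouse ear fibroblasts on 4 kinds of alginate gel were sequenced in 12 samples, 3 per group. Per the submitters' processing notes the authors used Trimmomatic, STAR and featureCounts with build mm10, and they deposited raw counts per gene with no normalization. Which annotation release and strand setting they used, and how multi-mapping reads were handled, is not given in the sources used here, so reads of overlapping genes could be divided. The counts were tested here with edgeR 4.0.16 in R 4.3.3 on the 14542 genes that passed filterByExpr (minimum count 10, minimum total 15), with TMM scaling and a quasi-likelihood model of 1 coefficient per group over all 12 samples. P-values were adjusted over all tested genes by Benjamini-Hochberg, and genes under 0.05 were called. Log2 CPM had a prior count of 2. The script was tested on simulated data. Totals per sample ran from 36626221 to 43612804 counts. CPM per kb used the exon union of a GENCODE annotation of mm10.

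The members and lists were chosen with earlier results of these data known. By rule, all 10 members were named, then up to 4 called genes per direction with the lowest p in each other list, the 3 genes most like the member with the widest span, and the nearest member of each. Acan, Col2a1, Col9a1, Sox9, Matn3, Cspg4, Notch3, Myh11, Rgs5 and Des are named as marker genes set beside members. Col3a1, Dcn, Lum, Thy1 and Pdgfrb are named as fibroblast markers, and Tln2 is named beside Tln1 as the other talin gene. The paper calls the samples biological replicates, but the labels do not tie them to separate animals, so that p-values measure the spread between these samples. The replicates differed by 11.2 to 55.5 times the variance of counting alone. The alternatives were RLE size factors, library totals, DESeq2 1.42.0, every gene with a count, fits to the compared groups alone, a gene length offset, a replicate block, a threshold of 0.01 and leaving out each sample.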

Additional observations from a re-analysis of the deposited data

Results flagged for a closer look

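The interaction test of edgeR singled out 2 subunits whose response to gel type differed between 2 and 20 kPa. For Itga10 the difference between the effects was 1.03 on the log2 scale (adjusted p = 0.00336), with all 3 viscoelastic samples below all elastic samples at 2 kPa and above them at 20 kPa, although the latter difference was not called. For Itga3 it was -0.62 (adjusted p = 0.0298), with the viscoelastic samples below the elastic ones at both stiffnesses and farther below at 20 kPa. At 2 kPa its highest viscoelastic and lowest elastic samples were level after rounding, and the effect was not called (adjusted p = 0.185).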

How the results depend on the processing

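The counts of called subunits were stable: 5 or 6 between gel types at 2 kPa, 6 at 20 kPa in every fit, 7 to 9 in the mean over stiffness, 2 or 3 between stiffnesses on elastic gels, 0 on viscoelastic gels, and 7 or 8 over all 4 groups. The interaction count of 2 became 1 with a replicate block, 1 at an adjusted p under 0.01, and ran from 1 to 2 when 1 sample was left out, through the loss of Itga3. Of 1120 values of single subunits under an alternative, 1061 kept direction and call, 15 lost a call, 10 gained one and 34 changed sign, of which 0 were called. With library totals alone, Itga1 at 2 kPa became 0.021 and Itgb1 between stiffnesses on viscoelastic gels 0.0037. With a gene length offset, Itga1 at 2 kPa became 0.13 and Itgav between stiffnesses on viscoelastic gels 0.0061, and Itga1 was called higher in the mean over stiffness (0.16, adjusted p = 0.0326). Itgb5 lost its call in the mean over stiffness with library totals (adjusted p = 0.119) and with every gene that had a count (adjusted p = 0.0724). Itgb1 gained a call between stiffnesses on elastic gels with RLE size factors, library totals, the length offset and DESeq2 (adjusted p 0.00324 to 0.0467). The cause of these changes was not tested.

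Leaving out 1 sample at a time, the log2 values that changed sign had these ranges. Between gel types at 2 kPa, this was Itga1 -0.082 to 0.039. Between gel types at 20 kPa, these were Itga1 -0.028 to 0.074 and Itga11 -0.042 to 0.095. Between stiffnesses on elastic gels, these were Itga2 -0.074 to 0.43, Itga5 -0.0046 to 0.26, Itga11 -0.064 to 0.072 and Itgb3 -0.18 to 0.20. Between stiffnesses on viscoelastic gels, these were Itga10 -0.13 to 0.23, Itgav -0.16 to 0.067, Itgb1 -0.030 to 0.020 and Itgb5 -0.052 to 0.029. In the mean over stiffness, this was Itga1 -0.023 to 0.039. In the interaction, these were Itga1 -0.010 to 0.12, Itga2 -0.035 to 0.48, Itga5 -0.20 to 0.070 and Itgb3 -0.090 to 0.30. Without 20-kPa elastic replicate 1, Itga11 was called higher in the mean over stiffness (0.14, adjusted p = 0.0332).

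Deviations of same-numbered samples from their group means correlated at 0.184, 0.308 and 0.0483 between the viscoelastic gels of 2 and 20 kPa. In the other comparisons of 2 groups they correlated at -0.16 to 0.0505. No values of differently numbered samples are set beside these, so they cannot decide whether replicate numbers pair the samples. A fit with the replicate number as a block called the same numbers of subunits in each comparison of 2 groups, 7 in the mean over stiffness (Itgb5 at adjusted p = 0.0521) and 1 in the interaction (Itga3 at adjusted p = 0.0558).

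The printed 95% intervals bound the differences that 3 samples per group could have missed. The scarce subunits Itga2 and Itgb3 had the widest intervals of the 10. Changes of scaling moved the median of all genes by at most 0.038 on the log2 scale.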
